A study of Mus musculus with 6 samples.

Results

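The cytosolic ribosomal protein genes encode the proteins of the 2 ribosomal subunits outside mitochondria. They were taken by symbol (Rpl, Rps and Rplp names with a number, and Rpsa) through the RefSeq accession of each probe. The symbols matched 89 mouse genes, of which 5 annotated as pseudogenes (Rps4l, a paralogue of Rps4x, among them) were left out. All of the other 84 had a probe, out of 20659 named genes on the array. A probe well above background on every array of at least 1 group was found for 83 of the 84, and these 83 are called the measured genes. The exception was Rpl39l, a paralogue of Rpl39 known from testis, whose only probe was not well above background on any of the 6 arrays.

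The tested cells were C2C12 cells that had received si-SYISL, a small interfering RNA against the long non-coding RNA SYISL (3 arrays), and the controls were C2C12 cells that had received the oligonucleotide si-NC (3 arrays). C2C12 is a mouse myoblast line whose cells leave the cell cycle and fuse into myotubes when serum is lowered. Both groups were grown in medium with 10% fetal bovine serum, transfected, and kept for 2 days in medium with 2% horse serum, and 1 µg of total RNA per sample was labelled with Cy3 for a single-colour Agilent array. Each condition is thus represented by 1 line and 1 siRNA label, and the labels do not say that the replicates were separate cultures. The gene table used here pairs no probe with SYISL, and its knockdown was therefore not checked.

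Arrays of replicates 1 and 3 agreed within the spread of repeated spots, with a chi-square per probe of 0.157 in si-SYISL and 0.235 in si-NC over 337 probes spotted repeatedly, where the other 13 pairs of arrays gave 28.1 to 193. Each such pair was averaged and counted as 1 sample, which leaves 2 samples in each group. The p-values cover no more than the spread of these samples, which may be technical. Spots well above background made up 87.9% to 90.6% on si-SYISL arrays and 78.2% to 84.6% on si-NC arrays, and 0 spots were saturated. The few samples limit the precision. Of 10 muscle markers, 10 were well above background on all 6 arrays, and their summed signal was 53.7 to 55.2 times the array's 75th percentile on si-SYISL arrays and 35.2 to 40.2 times on si-NC arrays. At an unadjusted limma p under 0.05, 5 of the 10 were higher and 1, Myod1, lower (-0.61 ± 0.13), against 16.8% of all features higher and 5.85% lower. Of 5 fibroblast markers, 5 were above background on all arrays (summed 100.6 to 114 in si-SYISL and 94.3 to 103 in si-NC), with overlapping ranges. Col1a1 differed by 0.51 ± 0.11 and the other 4 by -0.39 to -0.06, so that the list's median was -0.09. Of 4 markers each on the array, 3 macrophage, 3 endothelial, 3 adipocyte and 2 epithelial ones were above background on all 6 arrays, and 0 were so on none. These lists summed to 0.584 to 0.688 in si-SYISL and 0.595 to 0.608 in si-NC (macrophage), to 1.11 to 1.14 in si-SYISL and 0.956 to 1.04 in si-NC (endothelial), to 0.151 to 0.179 in si-SYISL and 0.140 to 0.147 in si-NC (adipocyte), and to 0.206 to 0.227 in si-SYISL and 0.116 to 0.184 in si-NC (epithelial). The part of these differences in the results below was not tested. In RNA from whole cultures, more cells of a type and more RNA per cell cannot be told apart.

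A ribosome reads mRNA on its small subunit and joins amino acids on its large subunit. Ribosomal protein genes are among the most strongly transcribed genes of growing cells, and their products are needed in equal numbers, so the family is known for levels that move together. In mammals their mRNAs begin with a run of pyrimidines, the 5′ terminal oligopyrimidine (TOP) tract, through which mTOR signalling and the protein Larp1 control their translation. Muscle is known for a paralogue of its own, Rpl3l, which takes the place of Rpl3 in some ribosomes of mature striated muscle. Mouse ribosomal protein genes also have many processed pseudogenes, and a probe may bind transcripts of such copies, so that a gene's signal cannot be separated from theirs.

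The stretches around the annotated start of 10 genes are shown because the TOP tract is the feature the family is known for, and because paralogues are set against ordinary members in the values that follow. They are RefSeq sequences on GRCm38.p6, from 25 bases before the first listed start to base 30 from it, 5′ to 3′ on the gene's strand. Capitals mark the part, within the printed bases, of the longest run (the first, where 2 are equal) of at least 8 C or T letters that reaches from 20 bases before the start onward.
Rpl38: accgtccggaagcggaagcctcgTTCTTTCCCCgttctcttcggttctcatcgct
Rpl13: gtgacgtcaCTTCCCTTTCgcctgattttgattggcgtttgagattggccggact
Rplp2: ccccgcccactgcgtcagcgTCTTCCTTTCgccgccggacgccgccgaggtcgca
Rps6: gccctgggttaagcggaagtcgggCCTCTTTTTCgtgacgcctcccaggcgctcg
Rps27: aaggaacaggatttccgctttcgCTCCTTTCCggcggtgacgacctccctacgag
Rpl22l1: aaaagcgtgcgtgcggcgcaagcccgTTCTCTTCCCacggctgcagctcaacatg
Rps27l: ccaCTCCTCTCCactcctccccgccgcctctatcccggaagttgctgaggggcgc
Rpl7l1: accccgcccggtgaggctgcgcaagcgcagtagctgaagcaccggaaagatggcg
Rpl3l: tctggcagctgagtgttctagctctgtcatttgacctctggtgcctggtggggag
Rpl10l: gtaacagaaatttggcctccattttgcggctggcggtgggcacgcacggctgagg
In Rpl38, Rplp2, Rps6, Rps27 and Rpl22l1 the run lies at or within 5 bases of the annotated start. In Rpl13 and Rps27l it begins 16 and 22 bases upstream of the start (in Rps27l a run of equal length, not in capitals, begins 12 bases upstream), and the stretches of Rpl7l1, Rpl3l and Rpl10l hold no capital. The run of Rpl3l begins 31 bases downstream of the start, just past the printed bases. The ordinary members shown do not stand for the family. Among those not printed, Rpl22, Rps4x, Rps3, Rpsa and Rplp0 had no such run at their first listed start. In Rpl39, Rpl10, Rps19, Rps15, Rps7 and Rpl41 the run begins 22 to 40 bases downstream of it. The stretches are chr11:114668555-114668609 (Rpl38, plus strand), chr8:123102325-123102379 (Rpl13, plus), chr7:141447626-141447680 (Rplp2, plus), chr4:86857338-86857392 (Rps6, minus) and chr3:90213619-90213673 (Rps27, minus). Those of the paralogues are chr3:28805483-28805537 (Rpl22l1, plus), chr9:66946061-66946115 (Rps27l, plus), chr17:46782627-46782681 (Rpl7l1, minus), chr17:24727801-24727855 (Rpl3l, plus) and chr12:66284372-66284426 (Rpl10l, minus).

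The table of promoters held 76 windows for 64 of the 84 genes, each from 250 bases before an annotated start to 50 from it. A pyrimidine run of that length, on the gene's strand and reaching from 20 bases before the start onward, was found for 78.1% of the 64 genes, against 31.1% of all 27018 genes in the table. The letters CGGAAG on either strand, the core word of ETS factors, were in the windows of 65.6% of them, against 18.8% of all genes. GGGCGG, a word of Sp1 sites, was in 60.9% against 38.2%, AAGATGG, a word of YY1 sites, in 15.6% against 7.28%, and TATAAA in 12.5% against 15.7%. Such matches are descriptions of letters and not sites of binding. The measured genes with a pyrimidine run (49) had a median log2 difference of 0.27 between si-SYISL and si-NC, and so did those without one in this window (14). With CGGAAG (41 genes) the median was 0.26 and without it (22 genes) 0.28. It was 0.22 with AAGATGG (10 genes) and 0.28 without it (53), 0.32 with TATAAA (8) and 0.26 without it (55), and 0.26 with GGGCGG (39) and 0.28 without it (24). None of these differences was tested.

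Setting si-SYISL cells against si-NC cells asks how transcript levels differ on day 2 of differentiation when SYISL is targeted. As a family the ribosomal protein genes had slightly higher signals in si-SYISL cells. The log2 difference was above 0 for 79 of the 83 measured genes and below 0 for 4, with a median of 0.27, or 1.20-fold. The quartiles were 0.20 and 0.32, and 72 genes lay between 0.1 and 0.5. The median of all 28552 features was itself 0.16, so the family's median relative to all features was 0.11, and 69 of 83 genes lay above that overall median. Every log2 difference below is before this subtraction, as si-SYISL minus si-NC ± SE from limma with 2 samples in each group, and each level is the log2 of the signal over the array's 75th percentile.

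No ribosomal protein gene passed the test over all features. At a limma p adjusted by the Benjamini-Hochberg method of under 0.05, 0 of 83 were called, against 0% of all features, and the members' adjusted p ran from 0.127 to 0.963. At an unadjusted limma p under 0.05 there were 23 higher and 0 lower, that is 27.7% of the members, against 16.8% of all features higher and 5.85% lower. The groups did not overlap in 70 of the 83 (84.3%), with si-SYISL higher, a pattern found in 46.3% of all features. In 0 of the 83 did they stand apart with si-SYISL lower, as 15.8% of all features did. Among the 7138 features with the brightest probes, which held 80 of the 83 members, the median was 0.08, and in 44.7% the groups did not overlap with si-SYISL higher. Among the 500 brightest features, the 444 that are not members had a median of 0.17, and in 58.1% of them the groups did not overlap with si-SYISL higher.

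Other settings of the test changed the call. With a variance trend and robust estimation in limma, 5 of the 83 passed, against 1.96% of all features higher and 1.2% lower: Rps19, Rpl13, Rpl29, Rps3 and Rps15, with adjusted p from 0.0268 to 0.0487. With the 6 arrays counted as 6 samples, 50 passed as higher and 0 as lower, against 24.8% of all features higher and 9.37% lower. The size of the shift also depended on the scaling. With quantile normalisation, which brought the median of all features to 0.03, the family's median was 0.08, 40 of 83 genes did not overlap with si-SYISL higher, against 30.5% of all features, and 6 with si-SYISL lower, against 23.8%. At an unadjusted limma p under 0.05 there were then 3 members higher, against 9.54% of all features, and 1 lower, against 8.82%, so that the share of members higher at that p lay below the background.

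**Figure D1:**
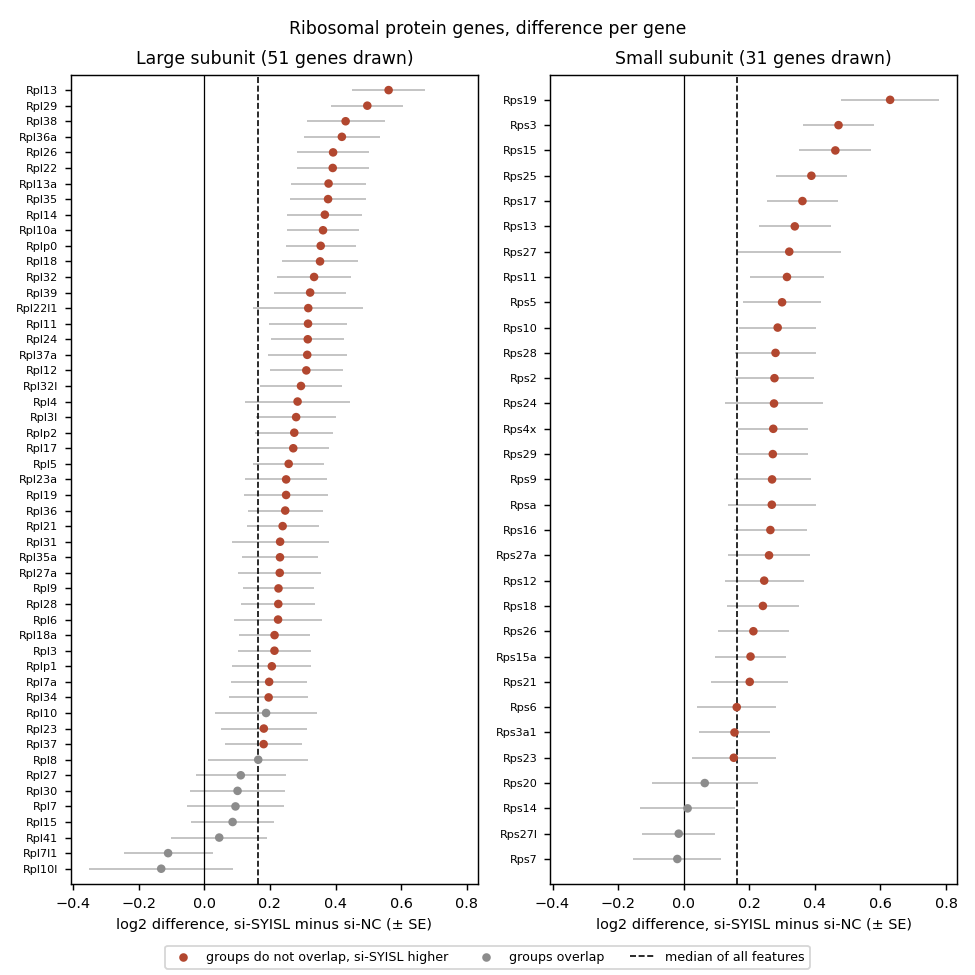
Log2 difference (horizontal axis, si-SYISL minus si-NC, bars ± SE from limma, 2 samples in each group) of 82 of the 83 measured ribosomal protein genes, large subunit on the left and small subunit on the right. Points are red for the 69 genes drawn whose 2 si-SYISL samples lie above both si-NC samples and grey for the 13 that overlap. Most points lie to the right of the dashed line, the median of all features at 0.16.

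The si-SYISL samples stood above the si-NC samples in the family as a whole. With each gene centred on its own mean, the family's median stood at 0.09 (replicates 1 and 3) and 0.17 (replicate 2) in si-SYISL, against -0.10 (replicates 1 and 3) and -0.16 (replicate 2) in si-NC. For all features the same levels were 0.03 and 0.11 in si-SYISL and -0.06 and -0.08 in si-NC. The si-SYISL samples stood about as far apart in the family as over the array, and the si-NC samples farther apart in the family. Replicate 2 was the higher si-SYISL sample in 64 of 83 genes and the lower si-NC sample in 58, and both held in 48. The median gap between the samples of a group was 0.09 in si-SYISL and 0.09 in si-NC, and in 65 genes the difference between groups was larger than both gaps. The share of all features with that pattern is not given, so the count does not set the family apart. Within the scan that held replicates 1 and 2 the family's median relative to all features was 0.10, and in the scan of replicate 3, with 1 array a group and no test, it was 0.11. Replicates 1 and 3 are counted as 1 sample, so the scan of replicate 3 adds no separate sample.

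**Figure D2:**
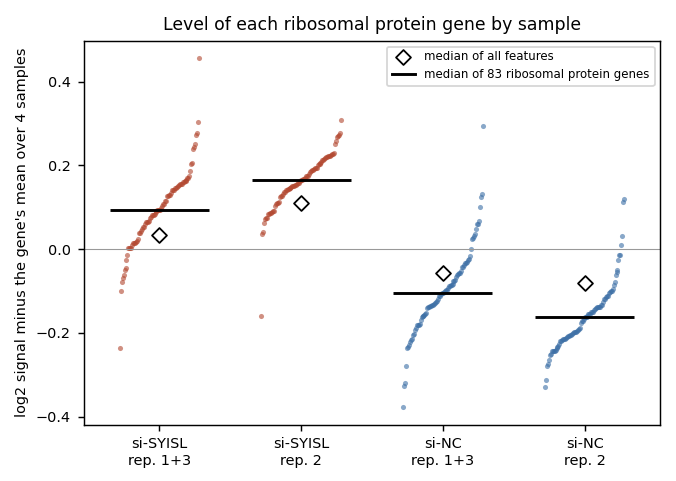
Level of each of the 83 ribosomal protein genes (vertical axis, log2 signal minus the gene's mean over the 4 samples) in the 2 si-SYISL samples and the 2 si-NC samples. Black bars are the family's medians and diamonds the medians of all features. The bars stand at 0.09 and 0.17 in si-SYISL and at -0.10 and -0.16 in si-NC, each farther from 0 than its diamond.

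Large and small subunit genes had similar medians. The 51 measured large subunit genes, with the stalk genes among them, had a median of 0.25. At an unadjusted limma p under 0.05, 16 (31.4%) were higher and 0 lower, against 16.8% of all features higher and 5.85% lower. The 32 small subunit genes had a median of 0.27, with 7 (21.9%) higher and 0 lower at that p. No test of the difference between the subunits was made.

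In the large subunit the widest difference was that of Rpl13. Its level was 5.19 and 5.14 in the si-SYISL samples, against 4.56 and 4.64 in the si-NC samples. Both si-SYISL values stood above both si-NC values by far more than the gap within a group, and the difference was 0.56 ± 0.11 (limma adjusted p = 0.127). Its other 2 probes gave 0.28 and 0.31. Rpl29, which is known for its role in growth of the mouse, had 6.08 and 6.02 in si-SYISL, against 5.59 and 5.52 in si-NC (0.50 ± 0.11, limma adjusted p = 0.140), and its second probe gave 0.54. Rpl38, known in the mouse for the translation of Hox mRNAs, had 5.995 and 6.10 in si-SYISL, against 5.68 and 5.56 in si-NC, a difference of 0.43 ± 0.12 (limma adjusted p = 0.163), and its second probe gave 0.32. In these genes the groups did not overlap.

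Rpl5 and Rpl11 form a particle with the 5S rRNA that, when not built into ribosomes, binds Mdm2 and so stabilises p53. Rpl5 had 4.69 and 4.72 in si-SYISL, against 4.47 and 4.43 in si-NC. Rpl11 had 5.33 and 5.37 in si-SYISL, against 5.11 and 4.96 in si-NC. Both genes were higher in each si-SYISL sample, by 0.26 ± 0.11 and 0.32 ± 0.12 (limma adjusted p = 0.247 and 0.222), close to the family's median. The stalk, which recruits elongation factors to the large subunit, is built from Rplp0, Rplp1 and Rplp2. Rplp0 had 5.92 and 5.90 in si-SYISL, against 5.54 and 5.57 in si-NC (0.35 ± 0.11, limma adjusted p = 0.177). Rplp1 and Rplp2 differed by 0.21 ± 0.12 and 0.27 ± 0.12, again with no overlap between the groups.

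In the small subunit Rps19, whose human counterpart is mutated in Diamond-Blackfan anaemia, had the widest difference of the family. Its level was 3.26 and 2.98 in the si-SYISL samples, against 2.43 and 2.55 in the si-NC samples. The groups did not overlap, although the si-SYISL samples were farther apart than in most members, and the difference was 0.63 ± 0.15, or 1.55-fold (limma adjusted p = 0.146). Rps15, a protein of the subunit's head, had 5.64 and 5.56 in si-SYISL, against 5.13 and 5.14 in si-NC (0.46 ± 0.11, limma adjusted p = 0.146), but its other probe gave -0.0038, with overlapping groups. Rps3, which lies at the mRNA entry channel, had 1.68 and 1.75 in si-SYISL, against 1.24 and 1.24 in si-NC (0.47 ± 0.11, limma adjusted p = 0.143), but its other probe gave 0.17 ± 0.11, near the median of all features.

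Rps6, the subunit protein that S6 kinases phosphorylate downstream of mTOR, lay near the array's overall shift. Its level was 5.30 and 5.43 in si-SYISL, against 5.26 and 5.15 in si-NC (0.16 ± 0.12, limma adjusted p = 0.427), its other 2 probes gave 0.11 and 0.06, and with quantile normalisation it differed by -0.01. Rps27a, which is made as a fusion with ubiquitin, differed by 0.26 ± 0.12 and Rpsa, also known as a laminin receptor, by 0.27 ± 0.13. Rps4x, the X-linked member, had 4.62 and 4.63 in si-SYISL, against 4.35 and 4.34 in si-NC, with the replicates of each group 0.01 apart.

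At the low end of the family 4 genes had differences below 0, and none of them passed the test or showed groups that do not overlap. They were Rpl10l at -0.13 ± 0.22, Rpl7l1 at -0.11 ± 0.14, Rps7 at -0.02 ± 0.13 and Rps27l at -0.02 ± 0.11. Rps14 and Rpl41, the shortest protein of the family, followed at 0.01 ± 0.15 and 0.05 ± 0.15. Rps14 had 5.66 and 5.83 in si-SYISL, against 5.61 and 5.85 in si-NC, so that the si-SYISL values lay within those of si-NC. The sign depended on the scaling or background correction for Rpl41 and Rps14, at -0.07 and -0.20 with quantile normalisation, and for Rpl10l, at 0.04 with normexp background.

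The paralogues taken up here are members known to be set apart in expression, and their values differed among themselves. Rpl3l, the striated-muscle form, had a dim probe with -4.84 and -4.71 in si-SYISL, against -4.99 and -5.12 in si-NC, well above background on all 6 arrays. Rpl3, the common form, had 5.40 and 5.36 in si-SYISL, against 5.22 and 5.12 in si-NC. The groups did not overlap in either gene, with differences of 0.28 ± 0.12 for Rpl3l and 0.21 ± 0.11 for Rpl3 (limma adjusted p = 0.259 and 0.303), so neither passed the test. Levels of different probes cannot be set against each other, and the share of Rpl3l among the 2 forms is therefore not given.

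Rpl22l1, the paralogue that in the mouse is known to be repressed by Rpl22, had 3.79 and 3.98 in si-SYISL, against 3.40 and 3.73 in si-NC. Rpl22 had 4.95 and 5.02 in si-SYISL, against 4.61 and 4.57 in si-NC. Both were higher in each si-SYISL sample, by 0.32 ± 0.17 for Rpl22l1 and 0.39 ± 0.11 for Rpl22 (limma adjusted p = 0.308 and 0.165), and the wide gap between the si-NC samples of Rpl22l1 gives it the larger error.

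Rps27l, a p53 target in human and mouse cells, had 4.10 and 4.18 in si-SYISL, against 4.13 and 4.18 in si-NC. Its partner Rps27 had 5.92 and 6.21 in si-SYISL, against 5.83 and 5.65 in si-NC (0.32 ± 0.16, limma adjusted p = 0.285). The groups overlapped for Rps27l and not for Rps27, and the difference between the paralogues was not tested. Rpl7l1, which acts in ribosome assembly, had -1.95 and -2.16 in si-SYISL, against -1.87 and -2.01 in si-NC. Its partner Rpl7 had 5.76 and 5.81 in si-SYISL, against 5.84 and 5.54 in si-NC (0.09 ± 0.15, limma adjusted p = 0.692), so that the groups overlapped in both, and Rpl7 was at -0.09 with quantile normalisation.

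Rpl10l, a retrogene of Rpl10 that is known for its role in male germ cells, was close to background. Its kept probe was well above background on 5 of 6 arrays, with -6.72 and -6.38 in si-SYISL, against -6.19 and -6.65 in si-NC, and its other probe on none. Rpl10 itself differed by 0.19 ± 0.16 (limma adjusted p = 0.468), with overlapping groups. Rpl39, the partner of Rpl39l, had 5.84 and 5.83 in si-SYISL, against 5.55 and 5.47 in si-NC (0.32 ± 0.11, limma adjusted p = 0.201).

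**Figure D3:**
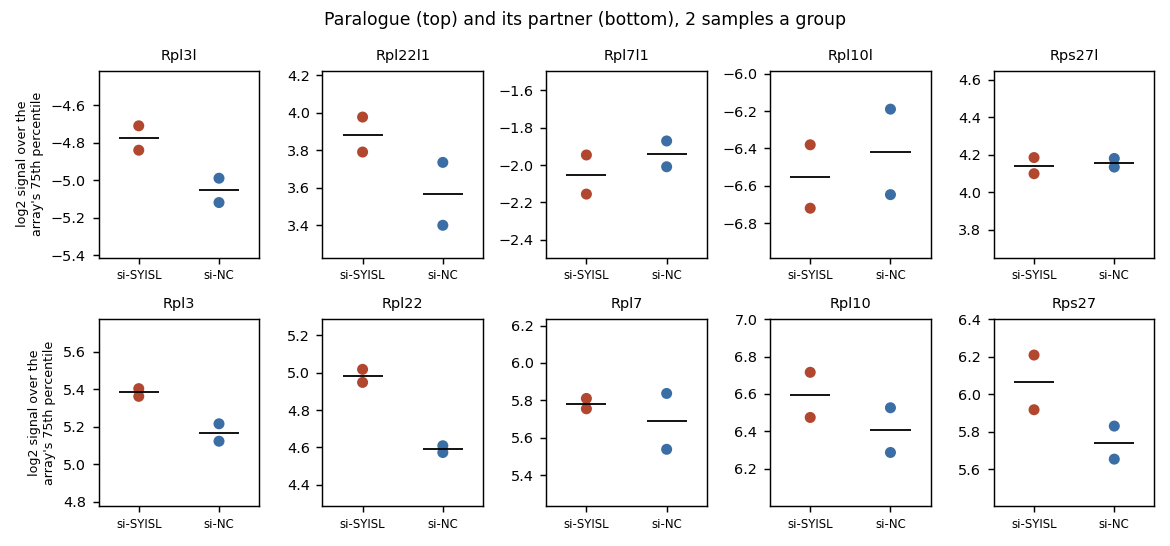
Levels (vertical axis, log2 signal over the array's 75th percentile, every panel spanning 1 unit) of 5 paralogues in the top row and of their partners in the bottom row, with si-SYISL samples in red left of si-NC samples in blue and black bars for the group means (2 samples each). The groups stand apart for Rpl3l, Rpl22l1, Rpl3, Rpl22 and Rps27 and overlap in the other 5 panels.

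Several members had more than 1 probe, which allows the same gene to be read more than once, with values from a fit of every probe on its own. Of 174 member probes 171 were kept, 158 of them with a difference above 0 and 13 below. The groups stood apart with si-SYISL higher at 136 probes, as they did at 44.8% of all kept probes. With si-SYISL lower they stood apart at 4, as they did at 16.8% of all kept probes. The 151 brighter probes (a mean level above 2) had a median of 0.27, and the 20 dimmer ones a median of 0.16. The 51 genes with several kept probes differed between their probes by a median of 0.15, where the median standard error of a member was 0.118.

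For 8 genes the probes disagreed in sign. Rpl31, a protein near the exit of the large subunit's tunnel, was higher in si-SYISL at 3 probes (0.23, 0.31 and 0.35) and lower at 1 more, where the level was -0.39 and -0.35 in si-SYISL, against -0.09 and 0.14 in si-NC (-0.40 ± 0.13, limma adjusted p = 0.202). That probe carries another RefSeq accession than the other 3. Rpl13a, which is known for a role in silencing inflammatory mRNAs, had 0.38 ± 0.12 at its brightest probe and -0.18 and -0.04 at 2 others. Rpsa, with no change of sign, ran from 0.04 to 0.62. Probes on either side of 0 were also found for Rpl15, Rpl7a, Rps15, Rps2 and Rps27a. These genes were singled out after their values were seen.

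**Figure D4:**
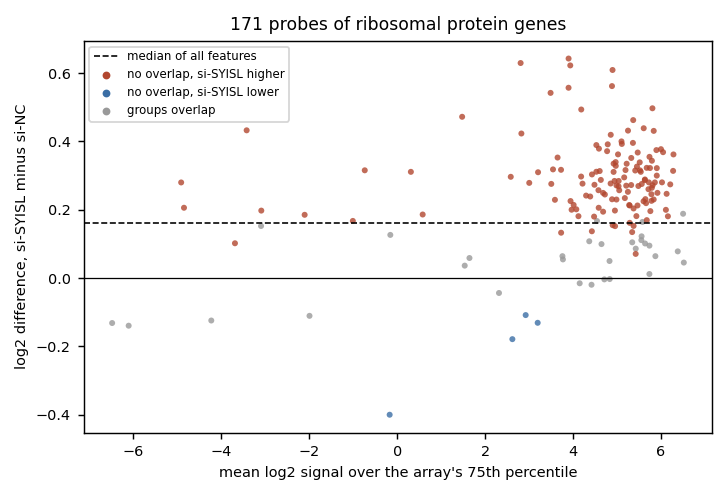
Log2 difference (vertical axis, si-SYISL minus si-NC) against mean level (horizontal axis, log2 signal over the array's 75th percentile) of the 171 kept probes of ribosomal protein genes. The 136 red probes do not overlap with si-SYISL higher (44.8% of all kept probes). The 4 blue ones do not overlap with si-SYISL lower (16.8% of all kept probes), and the grey ones overlap. The dashed line is the median of all features.

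Other genes of the ribosome and of translation were described from lists chosen with results of these data known, with no test of any list. No gene of these lists passed the limma test over all features in the fit reported here. With a variance trend 1 gene outside the symbol rule and 3 mitochondrial ribosomal protein genes passed as higher, and 1 biogenesis factor and 1 gene that controls ribosomal protein mRNA as lower. Of all features 1.96% then passed as higher and 1.2% as lower. With normexp background 1 gene that controls ribosomal protein mRNA passed as lower, against 0.312% of all features. With the 6 arrays counted as 6 samples, 24.8% of all features passed as higher and 9.37% as lower. Of 78 mitochondrial ribosomal protein genes 26 passed as higher and 3 as lower. Higher and lower were 9 and 3 of 31 initiation factors, 9 and 6 of 48 biogenesis factors, and 2 and 0 of 5 elongation factors. They were 1 and 4 of 13 genes that control ribosomal protein mRNA, and 1 and 3 of 10 chaperones and 5S partners. Outside the symbol rule 1 and 0 of 4 genes passed, and 0 and 0 of 14 other TOP genes. Ribosomal proteins whose names fall outside the symbol rule had a median of 0.28 over 4 genes, or 0.12 relative to all features, which was 0.00066 without si-NC replicate 2. Rpl36al, a retrogene form of Rpl36a, had 4.32 and 4.19 in si-SYISL, against 3.60 and 3.65 in si-NC (0.63 ± 0.12, limma adjusted p = 0.124). Fau, which carries Rps30, differed by 0.28 ± 0.13, and Rack1, the scaffold on the small subunit, by 0.27 ± 0.17.

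Of 5 measured elongation factors 1 was higher at an unadjusted limma p under 0.05 and 0 lower, with a median of 0.23. Over all features 16.8% were higher and 5.85% lower at that p. Eef1b2, the exchange factor of elongation factor 1, differed by 0.30 ± 0.11 and its partner Eef1d by 0.23 ± 0.12. The 31 initiation factors had a median of 0.13, with 3 higher and 3 lower at that p. Eif3e, a subunit of the factor that binds the small subunit, had 3.16 and 3.25 in si-SYISL, against 3.62 and 3.83 in si-NC (-0.52 ± 0.13, limma adjusted p = 0.153). Eif4ebp1, the repressor of the cap-binding protein that mTOR inactivates, had 3.53 and 3.21 in si-SYISL, against 2.76 and 2.87 in si-NC (0.55 ± 0.16, limma adjusted p = 0.167).

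The other genes known for a TOP tract had a median of 0.05 over 14 genes. At an unadjusted limma p under 0.05, 0 were higher and 0 lower, against 16.8% and 5.85% of all features. The groups stood apart with si-SYISL higher for 2 and lower for 2, against 46.3% and 15.8% of all features. The higher ones were Fau and Rack1, which are themselves ribosomal proteins, and the lower ones Hnrnpa1 and Npm1, a nucleolar chaperone. Hnrnpa1, an RNA-binding protein, had 1.82 and 2.27 in si-SYISL, against 2.46 and 3.14 in si-NC (-0.75 ± 0.30, limma adjusted p = 0.232). In the fit of every probe on its own, a dimmer probe of Hnrnpa1 gave -0.97 ± 0.17, also with no overlap. Its limma p was 0.0033 unadjusted and 0.125 adjusted, and it is not in the count above, which takes 1 probe per gene. Among 13 genes that control ribosomal protein mRNA the median was 0.00, with 1 higher and 2 lower. The higher one was Eif4ebp1, which is also counted among the initiation factors. Eif4ebp2 had -0.19 and 0.04 in si-SYISL, against 1.36 and 2.18 in si-NC (-1.84 ± 0.31, limma adjusted p = 0.118), while Larp1 differed by 0.0046 ± 0.13.

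Of 48 biogenesis factors 1 (2.08%) was higher and 2 (4.17%) lower at an unadjusted limma p under 0.05, and the median was 0.08. Over all features 16.8% were higher and 5.85% lower at that p. Dkc1, the pseudouridine synthase of rRNA, had -3.01 and -2.56 in si-SYISL, against -1.75 and -1.49 in si-NC (-1.16 ± 0.20, limma adjusted p = 0.122), and Wdr43, of the small subunit processome, differed by 0.37 ± 0.13. Among 10 chaperones of ribosomal proteins and partners of the 5S particle the median was -0.13, with 0 higher and 2 lower. Trp53, the gene of p53, had -3.88 and -2.33 in si-SYISL, against -0.85 and -1.02 in si-NC (-2.17 ± 0.54, limma adjusted p = 0.152), with a wide gap between the si-SYISL samples. Rrs1, which brings the 5S particle to the ribosome, differed by -0.30 ± 0.11 and is counted as lower in both of these lists. The 78 mitochondrial ribosomal protein genes had a median of 0.12, with 5 (6.41%) higher and 3 (3.85%) lower at that p. In 53.8% of them the groups did not overlap with si-SYISL higher, against 46.3% of all features. Mrpl52 had 4.14 and 4.12 in si-SYISL, against 3.62 and 3.66 in si-NC (0.49 ± 0.11, limma adjusted p = 0.138), and Mrpl38 differed by 0.61 ± 0.14. The order of the mitochondrial and the cytosolic genes depended on the scaling: relative to all features the cytosolic median was 0.11 and the mitochondrial one -0.04, but 0.050 and 0.060 with quantile normalisation and 0.051 and 0.060 with the series matrix.

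**Figure D5:**
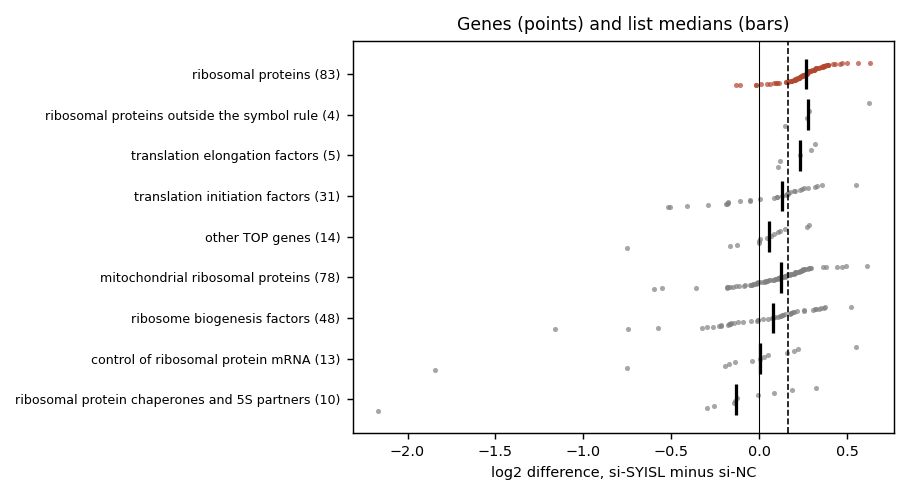
Log2 difference (horizontal axis, si-SYISL minus si-NC) of each measured gene (points) in 9 lists of the ribosome and of translation, with the number of measured genes in brackets, the list median as a black bar and the median of all features as a dashed line. The medians run from 0.27 for the ribosomal proteins and 0.28 for the 4 outside the symbol rule to -0.13 for chaperones and 5S partners. Quantile normalisation changes this order for several lists, the mitochondrial ribosomal proteins and the biogenesis factors among them.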

How the data were processed

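The deposited scanner files hold intensity in the column gProcessedSignal. Per the file headers, background subtraction and detrending were done array by array in Feature Extraction, with no normalisation between arrays. The headers give version 11.0.1.1, where the submitters' processing notes give 10.5.1.1. Flags of 0 or 1 for background, saturation and outliers are other columns of the deposited files. The deposited series matrix holds log2 values with nearly equal quantiles (median 8.58); how the authors made it is not given in the sources used here.

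Spots of controls and outliers were removed, log2 intensity was set relative to the 75th percentile of the array, and repeated spots were averaged per probe. Probes were named through RefSeq accessions (GRCm38.p6 table): 27234 of 39429 matched. A probe was kept when well above background on all 3 arrays of a group, and a gene was represented by its kept probe with the highest mean, which left 28552 features. Groups were compared with limma 3.58.1 (lmFit, eBayes, two-sided) in R 4.3.3 on 2 samples a group, after averaging replicates 1 and 3; the fit was tested on simulated data. Python 3.11.15, pandas 2.3.3, numpy 2.4.6 and matplotlib 3.10.9 were also used. Same-numbered samples did not deviate together (correlation -0.03), so no pairing was used. Members, lists and named genes were chosen with earlier results of these data known. Named were the paralogues Rpl3l, Rpl22l1, Rpl39l, Rpl7l1, Rpl10l and Rps27l with their partners, and Rps4x. The like-named and measured Rpl32l was not taken up among these paralogues. Also named were the 6 highest and 6 lowest differences, the 4 smallest p, Rps6, Rpsa, Rplp0, Rplp1, Rplp2, Rps27a, Rpl5 and Rpl11. From each other list with at least 5 measured genes the 2 smallest p were named. Others named were chosen after their values were seen. Values of some single genes are not reported here, though the counts and medians include them. Alternatives were normexp (offset 50), other scalings, the series matrix, other filters and probe rules, a variance trend, 6 arrays as samples, blocks and leaving out samples.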

Additional observations from a re-analysis of the deposited data

How the results depend on the processing

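The family's median relative to all features was above 0 in all 19 alternatives, but several of these could not change it. Median scaling, a variance trend and the replicate block on 4 samples leave it at 0.11 by construction. The blocks on 6 arrays likewise repeat the value of 6 arrays as 6 samples, 0.10. This median was 0.14 with normexp background and 0.14 with probes well above background on all 6 arrays. With quantile normalisation it was 0.050, nearly repeated by the series matrix at 0.051. It was 0.10 to 0.14 when any 1 of the 4 samples was left out. The count of genes passing the adjusted test was 5 with a variance trend (1.96% of all features higher), 50 with 6 arrays as 6 samples (24.8%), 39 with the replicate block on 6 arrays (20.9%), 30 with the scan block on 6 arrays (16.5%) and 0 in the other settings that allow a test, each sample left out included. The scan of replicate 3 alone allows none. Non-overlapping genes with si-SYISL higher numbered 40 with quantile normalisation (30.5% of all features), 40 with the series matrix (30.4%), 136 of 171 with every probe (44.8%), and 68 to 78 with a sample left out (54.0% to 63.3%). Genes higher at an unadjusted p under 0.05 numbered 3 with quantile normalisation (9.54% of all features), 3 with the series matrix (9.55%), 4 with median scaling (8.76%), 56 with a variance trend (17.2%), 61 with 6 arrays (34.3%), 11 with the replicate block (15.2%), 52 with that block on 6 arrays (33.7%), 54 with the scan block (30.3%), 45 with every probe (16.0%), and 3 (without si-NC replicate 2) to 8 with a sample left out (9.60% to 14.9%), where the lone sample is assumed to vary like the others. The replicate block changed no call of a gene on the 4 samples. The cause of these changes was not tested.

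Named genes near 0 changed sign. Rpl41 was -0.061 with normexp, -0.068 with quantile normalisation or the series matrix, -0.086 with median scaling, -0.023 with 6 arrays (with or without a block) and -0.077 to 0.17 with a sample left out. Rps14 was -0.20 with quantile normalisation or the series matrix, -0.12 with median scaling and -0.11 to 0.13 with a sample left out. Rpl7 was -0.093 with quantile normalisation or the series matrix, -0.037 with median scaling and -0.054 to 0.24 with a sample left out. Rps6 was -0.013 with quantile normalisation or the series matrix. Rps7 was 0.00047 with 6 arrays (with or without a block) and -0.13 to 0.091 with a sample left out. Rps27l ran from -0.058 to 0.028 with a sample left out, and Rpl10l was 0.037 with normexp and -0.36 to 0.097 with a sample left out. For Rpl10l and Rpl39l, signal over background limits what can be said.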
